A study of Mus musculus with 6 samples.

Results

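The genes described here are 10 receptors through which macrophages bind modified lipoproteins, bacteria and dying cells: Msr1, Marco, Cd36, Scarb1, Scarb2, Cd68, Mertk, Axl, Cd14 and Lrp1. They were taken by symbol from a deposited table of 22027 genes, and each symbol matched a single row. RNA was sequenced from RAW 264.7, a mouse macrophage cell line labelled WT, 48 h after lipofection with 10 pmol of siRNA per well. Of 6 libraries, 3 are titled siCTL, for cells given an NT siRNA, and 3 siTET3, for cells given an siRNA against Tet3. The enzyme it encodes converts methylated cytosines of the genome to oxidised forms. All 6 libraries carry siTET3 in their treatment label, so titles alone define the groups. All cells were transfected, no untransfected cells were analysed here, and a single cell line was used. No sequence of the siRNA against Tet3 was given, so whether it was a single siRNA or a pool is unknown. Whether replicates were separate cultures is not stated, so p-values measure only how these libraries differ among themselves, which may be technical.

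Scavenger receptors bind oxidised lipoproteins and other polyanionic ligands and bring them into the cell. Class A receptors (Msr1, Marco) are collagen-like trimers, and members of the CD36 family (Cd36, Scarb1, Scarb2) cross the membrane at both ends of the protein and handle lipids or lysosomal cargo. Receptor kinases of the TAM family (Mertk, Axl) take up apoptotic cells through bridging ligands such as GAS6. CD14 hands lipopolysaccharide to TLR4, and LRP1 is a large endocytic receptor for proteases, protease inhibitors and lipoproteins.

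The values are gene read counts that the authors scaled by 1 size factor per library, called normalised read counts here. Whole reads could be recovered from them, and the libraries held between 29587171 and 61709131. One library stood apart. siCTL replicate 2 had a median absolute deviation from the mean of the other 5 libraries of 0.41 (log2) over 11591 genes, against 0.10 to 0.16 for the other libraries. Its deviation followed base content, with a median of -0.54 below the lower quartile of G+C and 0.33 above the upper one. Results that rest on it are therefore also given without it. All 12 macrophage markers examined were measured, with a summed normalised read count of 433061 to 531835 in siCTL and 456804 to 486080 in siTET3. These sums mostly describe Lyz2, which alone had 332088 to 418499 in siCTL and 346194 to 372772 in siTET3. Of 7 T and NK cell markers in the table, 5 were at 0 in every library, as were 3 of 6 B cell markers and 5 of 8 epithelial and endothelial markers. The summed level of 10 neutrophil and dendritic cell markers was 166 to 255 normalised reads. Tet3 itself had 2036 ± 130 normalised reads in siCTL and 1957 ± 21.2 (SD, n = 3) in siTET3, which did not pass (limma adjusted p = 0.699). The siTET3 group is therefore called by its label below.

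The cells expressed 7 of the 10 receptors at high or moderate levels, 2 near the limit of detection and 1 not detectably. Per kilobase of annotated exons, the mean normalised read count over 6 libraries was 31283 ± 3830 (SD, n = 6) for Cd68 and 20476 ± 1599 (SD, n = 6) for Cd14. It was 4676 for Cd36, 2353 for Msr1, 1417 for Lrp1, 716 for Scarb1 and 376 for Scarb2. Axl stood at 13.3 ± 21.9 and Mertk at 2.73 ± 2.72 (SD, n = 6) per kilobase. The Axl mean was raised by siCTL replicate 2, at 57.9, while the mean in the libraries labelled siTET3 was 4.90. The ranges over the 6 libraries of neighbouring genes in this order did not overlap down to the step from Scarb2 to Axl, whereas those of Axl and Mertk overlapped. That overlap rested on siCTL replicate 2, where Mertk reached 7.89 per kilobase. Without that library the ranges were apart, and Axl lay above Mertk within every library. With the length of the longest coding transcript in place of all exons, Scarb1 came before Lrp1 and the order was otherwise the same. Cd68 lay above 99.6% and Cd14 above 99.3% of all genes tested on this scale, while Axl lay above 8.33% and Mertk above 1.39% of them. For Axl and Mertk these shares include the high values of siCTL replicate 2. The 2 most abundant genes are short, and together with Lrp1 they took the largest shares of all reads among the members (0.101% for Cd68, 0.0914% for Cd14 and 0.0641% for Lrp1).

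**Figure D1:**
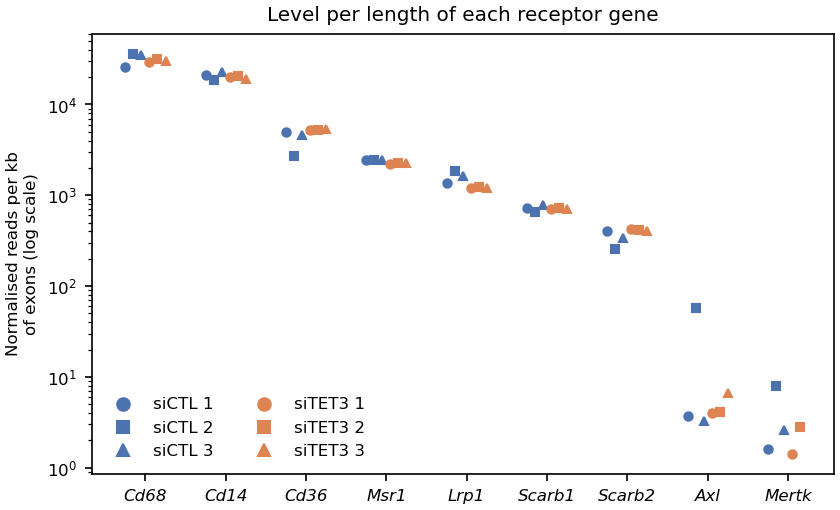
Level of each receptor gene by library, as normalised reads per kilobase of annotated exons on a log scale. Points are single libraries, coloured by label and shaped by replicate. Marco and the library at 0 for Mertk cannot be drawn on a log axis. The means run from 31283 for Cd68 to 2.73 for Mertk.

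Because TET enzymes act on cytosines followed by guanine, the bases before the start sites of 4 members are shown, with each CG in capitals. They are Marco, with no read, Lrp1, with the smallest p, Cd36, which turned sign with base content, and Axl, raised in a single control library. Scarb1 also turned sign and Mertk was also highest in that library, so these traits do not single out the genes shown. RefSeq start sites (GRCm38.p6) were found for 7 of the 10 genes, namely Marco, Cd36, Scarb2, Cd68, Mertk, Axl and Lrp1, and not for Msr1, Scarb1 and Cd14. The Cd36 window lies inside the annotated gene, which runs up to 17888801, whereas those of Marco, Axl and Lrp1 lie outside theirs. Which starts the cells used was not tested. The 250 bases before each start are given on the strand of the gene, which is the minus strand for all 4, from chr1:120505025-120505274, chr5:17835897-17836146, chr7:25788734-25788983 and chr10:127621149-127621398.
Marco: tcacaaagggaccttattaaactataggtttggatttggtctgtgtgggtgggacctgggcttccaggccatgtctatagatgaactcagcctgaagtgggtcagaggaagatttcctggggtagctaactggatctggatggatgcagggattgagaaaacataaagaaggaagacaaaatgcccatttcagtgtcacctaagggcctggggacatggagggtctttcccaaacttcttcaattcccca
Cd36: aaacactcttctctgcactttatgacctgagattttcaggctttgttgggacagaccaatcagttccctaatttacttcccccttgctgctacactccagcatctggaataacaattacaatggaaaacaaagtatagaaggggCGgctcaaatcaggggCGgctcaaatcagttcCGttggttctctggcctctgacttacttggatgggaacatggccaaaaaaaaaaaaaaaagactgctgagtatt
Axl: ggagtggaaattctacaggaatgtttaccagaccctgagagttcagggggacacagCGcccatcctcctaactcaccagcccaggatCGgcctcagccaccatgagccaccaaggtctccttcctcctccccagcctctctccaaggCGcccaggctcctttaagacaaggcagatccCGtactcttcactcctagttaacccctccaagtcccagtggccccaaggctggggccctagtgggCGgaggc
Lrp1: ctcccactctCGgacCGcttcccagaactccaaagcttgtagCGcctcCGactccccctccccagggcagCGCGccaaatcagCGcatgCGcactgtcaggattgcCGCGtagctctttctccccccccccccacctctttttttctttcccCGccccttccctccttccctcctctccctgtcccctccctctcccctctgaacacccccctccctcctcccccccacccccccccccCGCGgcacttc
These windows hold 0 CG in Marco, 3 in Cd36, 5 in Axl and 13 in Lrp1. Those of Cd68, Mertk and Scarb2, which are not shown, hold 4, 7 and 19. The Scarb2 window also lies inside its annotated gene. Over 32851 RefSeq start sites the median was 6, with quartiles of 2 and 16. Scarb2, with more CG than 80.3% of these windows, and Marco, with none, were the extremes among the members. No methylation was measured in these libraries.

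No member was called in either direction. Of the 9 members with a mean of at least 10 normalised reads, limma called none higher and none lower at an adjusted p under 0.05, where 0.293% of 11591 genes were called higher and 0.0604% lower, or 0.354% in either direction. At an unadjusted p under 0.05 there was 1, Lrp1, against 13.2% of all genes. edgeR on the recovered reads also called 0, where it called 0.285% of all genes higher and 0.0604% lower, or 0.345%, with 1 at an unadjusted p under 0.05 (Lrp1) against 13.3% of all genes. DESeq2 called 0 of the 7 members for which it gave an adjusted p, where it called 1.91% of genes higher and 1.93% lower, or 3.84%, with 2 at an unadjusted p under 0.05 (Msr1 and Lrp1) against 17.5%. The groups did not overlap for 3 of 9 members, 2 lower (Msr1 and Lrp1) and 1 higher (Cd36) in the libraries labelled siTET3. Over all genes tested the share was 31.5%, or 15.5% lower and 16.1% higher, so the count of members is close to the background. Against siCTL replicates 1 and 3 alone, 6 members did not overlap, 4 lower and 2 higher, beside 41.8% of all genes. The median log2 change of the 9 members was -0.08, against 0.00 over all genes tested. With siCTL replicate 2 left out, limma again called none of 8 members tested, although 2.65% of genes were then called higher and 2.23% lower, or 4.88%, and the median of the members was -0.04. With the base-content trend also removed it called none, beside 2.28% higher and 1.59% lower, or 3.87%. Without that library but with the trend kept, 2 members had an unadjusted p under 0.05, Cd36 and Lrp1, against 23.5% of all genes.

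**Figure D2:**
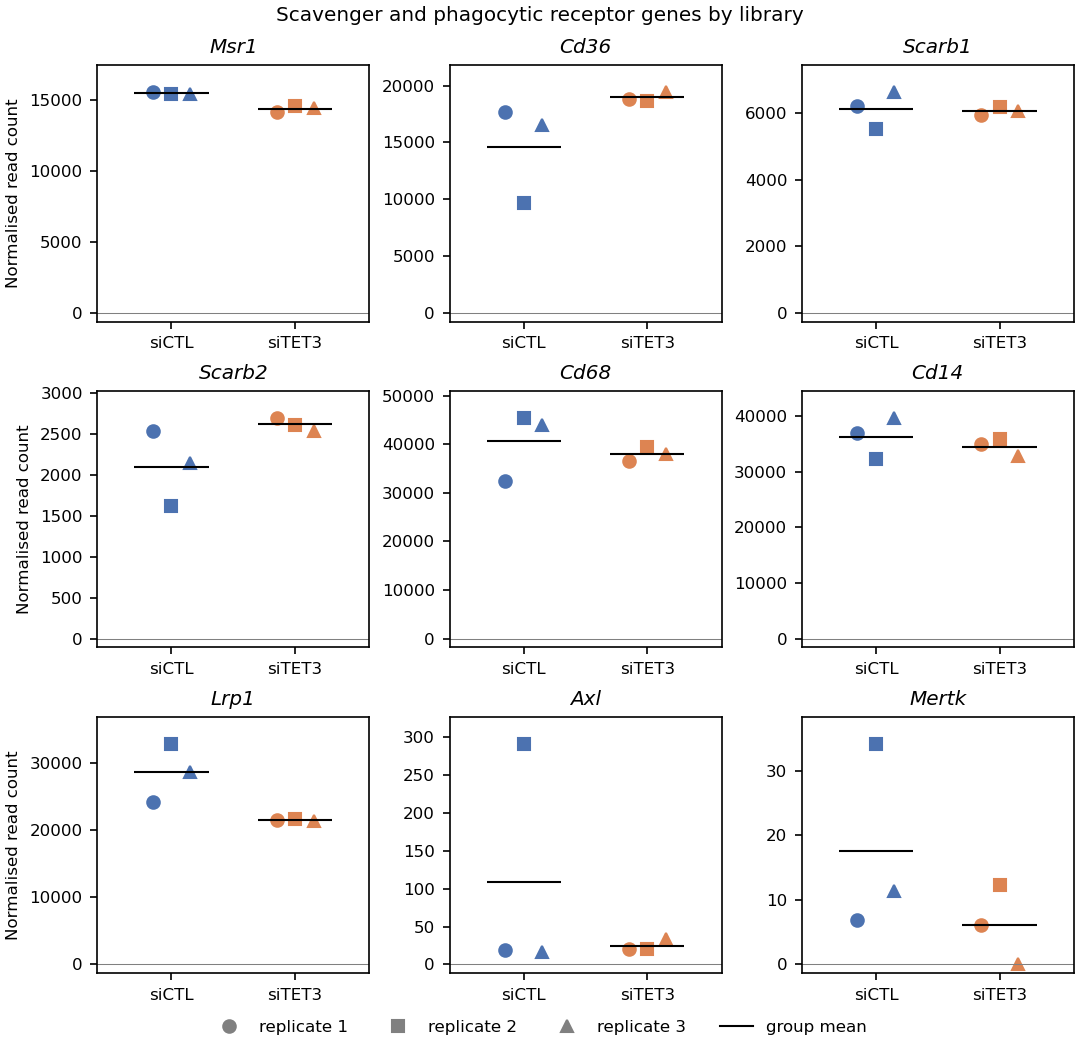
Normalised read count of the 9 detected receptor genes in each library. Points are libraries, shaped by replicate number, and the horizontal line is the group mean over 3 libraries. The square in siCTL, replicate 2, is the lowest value for Cd36 (9648), Scarb2 (1625), Scarb1 (5511) and Cd14 (32332). It is the highest for Axl (291), Mertk (34.2), Lrp1 (32965) and Cd68 (45503), and neither for Msr1.

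Lrp1 had the smallest p of the members. Its gene lies on chromosome 10 from 127538161 to 127621148 on the minus strand (ENSMUSG00000040249.15, GRCm38). In siCTL replicates 1 to 3 it had 24308, 32965 and 28789 normalised reads, and the libraries labelled siTET3 had 21573, 21662 and 21338. Every control library lay above every library labelled siTET3, and the controls spread far more widely (coefficient of variation 15.1%) than the others (0.779%). The mean in the libraries labelled siTET3 was 75.0% of that in siCTL, and the log2 change was -0.40 ± 0.13 (SE, n = 3), with a 95% interval from -0.71 to -0.10. It did not pass (limma adjusted p = 0.332), and the exact two-sided permutation p was 0.1, the smallest that 3 against 3 libraries allow. With siCTL replicate 2 left out the mean was 81.1% of control and the log2 change -0.30 (limma adjusted p = 0.0615). With the base-content trend also removed, the log2 change was -0.17 (limma adjusted p = 0.181). The authors' deposited table lists a log2 change of -0.41 for Lrp1, turned here to siTET3 over siCTL, with an adjusted p of 0.0880. That table calls 2.94% of its genes with an adjusted p and none of the 10 receptors.

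The coding transcript of Lrp1 has a G+C content of 57.9%, the highest of the members, and siCTL replicate 2 lay 0.50 above the other libraries (log2). Genes within 2 percentage points of that base content were a median of 0.31 higher in that library. By a rule stated with the methods, the genes of 10067 searched whose profiles over the 6 libraries were nearest to that of Lrp1 included Cic, Rps16, Rras and Nos2. Their root mean square differences from it ran from 0.0196 to 0.0359 on the log2 scale. They were chosen for this profile, so their changes are a description with no test. Their log2 changes lay between -0.44 for Nos2 and -0.37 for Cic.

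Msr1, the class A scavenger receptor for acetylated and oxidised low-density lipoprotein, was the member with the tightest control values. Its gene lies on chromosome 8 from 39581685 to 39642673 on the minus strand (ENSMUSG00000025044.16). The normalised read count was 15583, 15407 and 15393 in siCTL and 14186, 14554 and 14445 in the libraries labelled siTET3. The groups did not overlap, and both were narrow, with coefficients of variation of 0.686% and 1.31%. The mean was 93.1% of control and the log2 change -0.10 ± 0.08 (SE, n = 3), which did not pass (limma adjusted p = 0.473, exact permutation p = 0.1). Leaving out siCTL replicate 2 gave -0.11 (limma adjusted p = 0.315), with a 95% interval for the fold of 0.847 to 1.02.

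Msr1 did not follow the base-content trend of siCTL replicate 2. Its coding transcript is the lowest of the members in G+C, at 38.4%, and the 637 genes within 2 percentage points of it were a median of 0.95 lower in that library (log2). Msr1 was 0.06 higher there, above 91.4% of those genes. Removing the trend moved the log2 change of Msr1 to -0.59 with all libraries (limma adjusted p = 0.494) and to -0.29 without siCTL replicate 2 (limma adjusted p = 0.0747).

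Marco, the other class A receptor, had 0 reads in all 6 libraries. The gene lies on chromosome 1 from 120474538 to 120505024 on the minus strand (ENSMUSG00000026390.7). A count of 0 allows up to 3 reads, which was 1.90 to 3.82 normalised reads in single libraries. This limit covers counting error only. No fold was given, and the log2 ratio of Msr1 to Marco could not be compared between groups.

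Within the CD36 family, Cd36 and Scarb2 had higher means and Scarb1 a similar mean in the libraries labelled siTET3, and no member passed. Cd36, which takes up fatty acids and oxidised lipoproteins, lies on chromosome 5 from 17781690 to 17888801 on the minus strand (ENSMUSG00000002944.15). Its normalised read count was 17693, 9648 and 16491 in siCTL and 18817, 18612 and 19453 in the libraries labelled siTET3. The groups did not overlap, and siCTL replicate 2 was far below the other controls.

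The log2 change of Cd36 was 0.43 ± 0.23 (SE, n = 3; limma adjusted p = 0.394, exact permutation p = 0.1). It was 0.15 without siCTL replicate 2, with a 95% interval from 0.00 to 0.30 (limma adjusted p = 0.202). With the trend also removed it was -0.04, so no direction was drawn. At a G+C content of 38.4%, Cd36 lay 0.91 below the other libraries in siCTL replicate 2 (log2), and the median was -0.95 for the 639 genes within 2 percentage points.

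Scarb2, the lysosomal membrane protein LIMP-2 that carries glucocerebrosidase to the lysosome, lies on chromosome 5 from 92441314 to 92506833 on the minus strand (ENSMUSG00000029426.8). It had 2538, 1625 and 2143 normalised reads in siCTL and 2701, 2616 and 2537 in the libraries labelled siTET3. The ranges touched, since siCTL replicate 1 lay just above siTET3 replicate 3. The log2 change was 0.34 ± 0.17 (SE, n = 3; limma adjusted p = 0.383), or 0.17 without siCTL replicate 2 (limma adjusted p = 0.257) and 0.10 with the trend also removed (limma adjusted p = 0.501).

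Scarb1, the high-density lipoprotein receptor SR-BI, lies on chromosome 5 from 125277087 to 125341094 on the minus strand (ENSMUSG00000037936.15). It had 6212, 5511 and 6640 normalised reads in siCTL and 5954, 6172 and 6052 in the libraries labelled siTET3. The libraries labelled siTET3 lay inside the range of the controls, but this rested on siCTL replicate 2. The controls of replicates 1 and 3 lay above every library labelled siTET3. The log2 change was -0.01 ± 0.10 (SE, n = 3; limma adjusted p = 0.953), and the 95% interval of the fold ran from 0.843 to 1.17. Without siCTL replicate 2 the log2 change was -0.08 (limma adjusted p = 0.450), and with the trend also removed it was 0.00.

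Changes within the family were also compared as log2 ratios of one member to another in the same library. The ratio of Scarb1 to Scarb2 was 1.56 ± 0.24 in siCTL and 1.21 ± 0.06 (SD, n = 3) in the libraries labelled siTET3, and that of Scarb1 to Cd36 -1.21 ± 0.36 and -1.65 ± 0.05 (SD, n = 3). Both did not overlap between groups, at an exact two-sided permutation p of 0.1 each and 0.2 adjusted over 4 ratios. Over single genes tested the share without overlap was 31.5%, and no such share was computed for ratios. The ratio of the TAM receptors Mertk to Axl, also among the 4, moved by -0.84 (exact permutation p = 0.6), or by -1.56 without siCTL replicate 2. The ratio of Cd36 to Scarb2 moved by 0.09 (exact permutation p = 0.7). In the absence of siCTL replicate 2 the differences were -0.25 for Scarb1 to Scarb2, -0.23 for Scarb1 to Cd36 and -0.02 for Cd36 to Scarb2. With 3 libraries a group, none of these could pass the threshold of 0.05. The ratios keep the base-content trend, and G+C was 56.2% for Scarb1, 46.3% for Scarb2 and 38.4% for Cd36. With the trend removed, limma log2 changes of these genes were 0.15, 0.23 and -0.06 with all libraries. Without siCTL replicate 2 they were 0.00, 0.10 and -0.04. The change of Scarb1 was then no longer below that of Cd36, so no direction was drawn for that ratio.

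**Figure D3:**
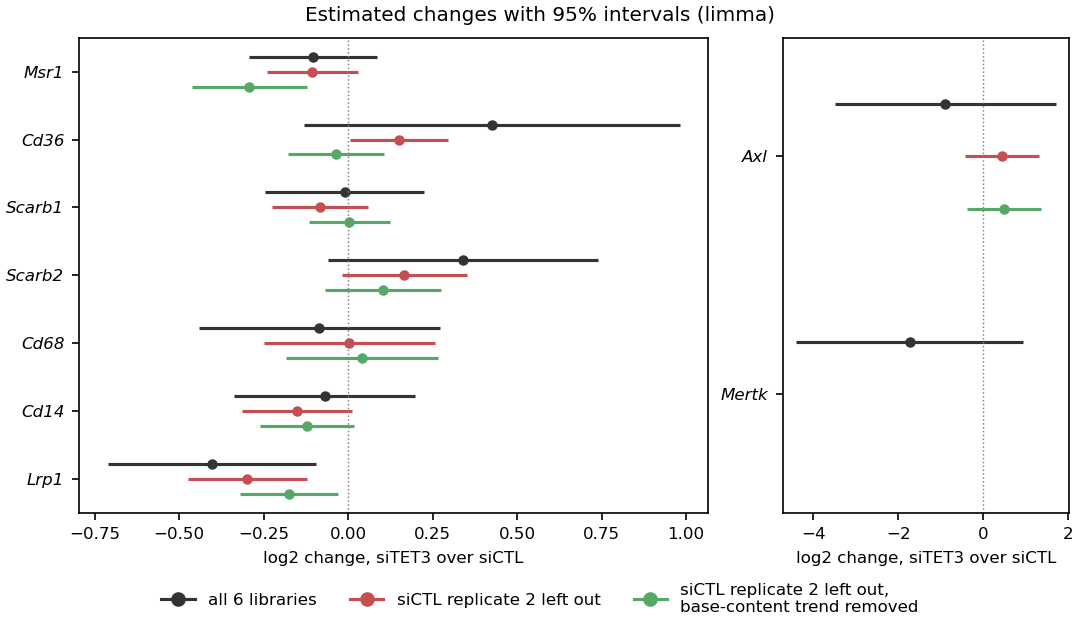
Log2 change of each receptor gene, siTET3 over siCTL on the log2(value + 1) scale, with 95% intervals from limma. Black uses all 6 libraries, red leaves out siCTL replicate 2 and green also removes the base-content trend. Lrp1 stays below 0 in all 3 fits, at -0.40, -0.30 and -0.17, while Cd36 goes from 0.43 to 0.15 and -0.04. Mertk fell under the filter without siCTL replicate 2, and the right panel has a wider axis.

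With all libraries, Cd68 and Cd14, the most abundant members, differed by less than the spread of their controls. For Cd14 this rested on siCTL replicate 2. Cd68, a heavily glycosylated lysosomal protein used as a macrophage marker, lies on chromosome 11 from 69664213 to 69666153 on the minus strand (ENSMUSG00000018774.13). It had 32533, 45503 and 44004 normalised reads in siCTL and 36496, 39375 and 38023 in the libraries labelled siTET3. The control range enclosed the other group. The log2 change was -0.08, with a 95% interval from -0.44 to 0.27 (limma adjusted p = 0.737), and 0.00 without siCTL replicate 2.

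Cd14, the lipopolysaccharide coreceptor, lies on chromosome 18 from 36725067 to 36726798 on the minus strand (ENSMUSG00000051439.6 in the deposited table). It had 36984, 32332 and 39767 normalised reads in siCTL and 34983, 35946 and 32775 in the libraries labelled siTET3. The groups overlapped, with the lowest value of all in siCTL replicate 2. The log2 change was -0.07 ± 0.11 (SE, n = 3; limma adjusted p = 0.714), or -0.15 without siCTL replicate 2 (limma adjusted p = 0.241), when both remaining controls lay above every library labelled siTET3.

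The TAM receptors were barely expressed, except for Axl in 1 control library. Axl lies on chromosome 7 from 25757273 to 25788705 on the minus strand (ENSMUSG00000002602.16). It had 18.5, 291 and 16.5 normalised reads in siCTL and 20.4, 20.4 and 33.1 in the libraries labelled siTET3. Only siCTL replicate 2 was high, with 230 reads against 16 to 26 in the other 5 libraries. Across all genes tested, Axl ranked 76 of 11591 by how far that library lay above the rest, at 3.72 on the log2 scale. The mean of the libraries labelled siTET3 was 22.7% of the control mean with all libraries and 141% without siCTL replicate 2. The log2 change was accordingly -0.89 ± 1.08 (SE, n = 3; limma adjusted p = 0.626, exact permutation p = 1) and turned to 0.44 without that library (limma adjusted p = 0.524). The authors' deposited table lists a log2 change of -2.14 and no p-value for Axl.

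Mertk lies on chromosome 2 from 128698956 to 128802894 on the plus strand (ENSMUSG00000014361.5). It had 6.94, 34.2 and 11.4 normalised reads in siCTL and 6.11, 12.3 and 0 in the libraries labelled siTET3, from 6, 27, 18, 6, 15 and 0 reads. The highest value was again in siCTL replicate 2, and the other libraries overlapped. The log2 change was -1.73 ± 1.11 (SE, n = 3; limma adjusted p = 0.424, exact permutation p = 0.3). It was -0.64 without siTET3 replicate 3, the library at 0 (limma adjusted p = 0.722), and -1.001 with a pseudocount of 5 (limma adjusted p = 0.424). Mertk passed the filter on low values only through siCTL replicate 2, and could not be tested without it.

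Some genes of stromal cells moved with the TAM receptors in siCTL replicate 2. The summed normalised read count of 8 fibroblast markers was 597 in that library, against 41.7 and 36.8 in the other controls and 24.5 to 28.0 in the libraries labelled siTET3. Col1a2, a chain of type I collagen, had 286 normalised reads there and at most 3.27 elsewhere. Col3a1, the chain of type III collagen, had 144 there and at most 2.55 elsewhere, and Pdgfra, a growth factor receptor of mesenchymal cells, had 109 and at most 5.79. Pdgfrb had 57.0 there and 9.81 to 26.6 elsewhere. Col1a1, the partner chain of Col1a2, was at 0 in every library, as was Thy1, and Dcn and Lum were at 0 in siCTL replicate 2. The part of these transcripts in the Axl and Mertk values was not tested. In bulk RNA, a few cells with much of a transcript and many cells with little of it cannot be told apart.

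**Figure D4:**
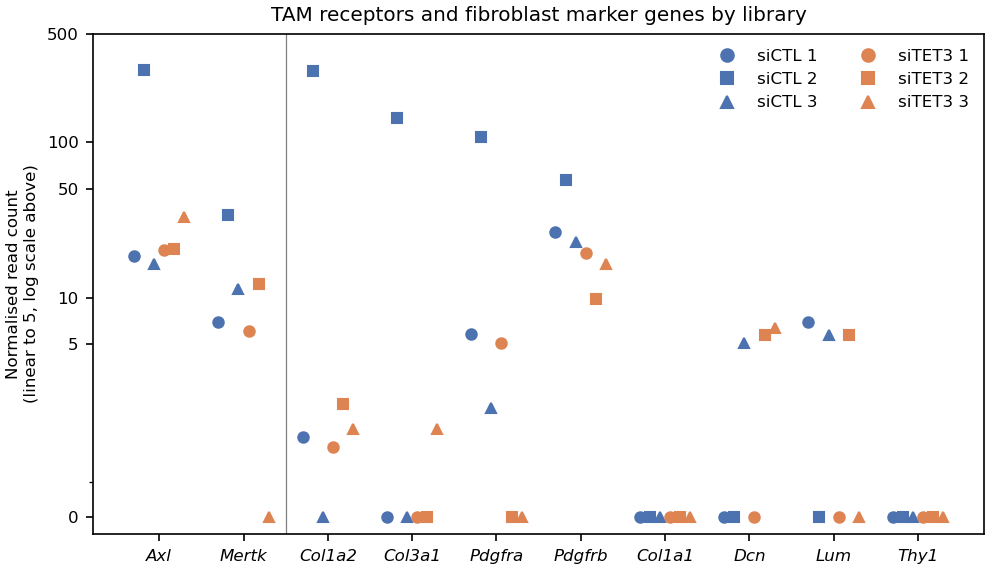
Normalised read counts of Axl, Mertk and the 8 fibroblast markers in each library, on an axis that is linear up to 5 and logarithmic above. siCTL replicate 2 (blue squares) is the highest library for Axl (291), Mertk (34.2), Col1a2 (286), Col3a1 (144), Pdgfra (109) and Pdgfrb (57.0). It is at 0 for Col1a1, Dcn, Lum and Thy1.

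**Figure D5:**
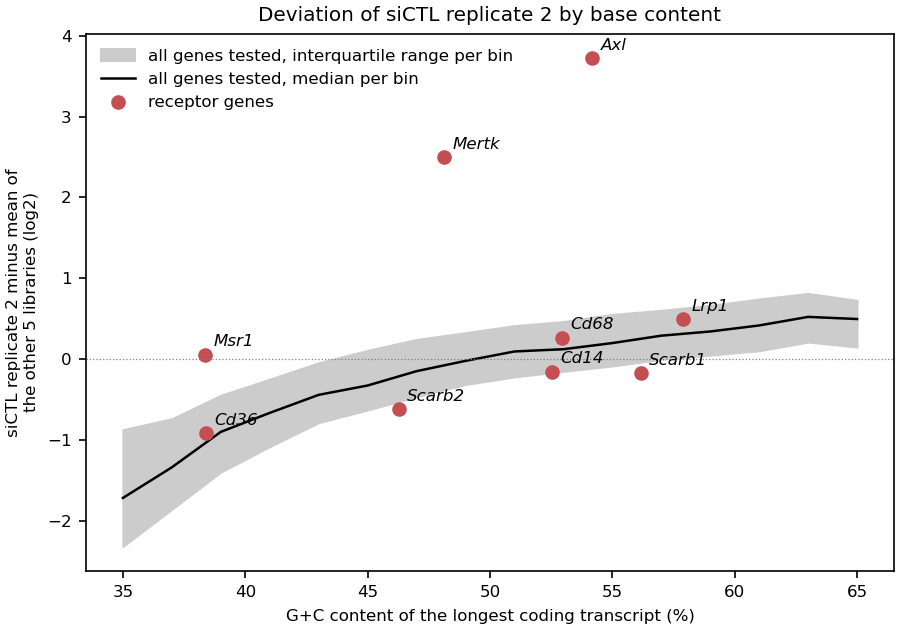
Log2 difference of siCTL replicate 2 from the mean of the other 5 libraries against the G+C content of the longest coding transcript. The line and band are the median and the interquartile range of all genes tested, in bins of 2 percentage points. Cd36 (-0.91) lies on the trend, Lrp1 (0.50) within the band and Cd14 (-0.16) at its lower edge. Axl (3.72), Mertk (2.50) and Msr1 (0.06) lie above the band, and Scarb2 (-0.62) and Scarb1 (-0.17) below it.

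Genes that work with these receptors were read from the same fit in 7 lists of 121 genes, of which 104 were tested. With all libraries limma called none of them in either direction, beside 0.354% of all genes, and 21 had an unadjusted p under 0.05, beside 13.2%. edgeR called 0, beside 0.345%, with 22 at an unadjusted p under 0.05, beside 13.3%. DESeq2 called 2 higher and 9 lower, beside 1.91% and 1.93% of all genes. Mmp9 and Abca1 just missed the threshold of limma with all libraries. DESeq2 called both, as did limma with a pseudocount of 5 or with genes of a mean of at least 50 alone. With all libraries and the base-content trend removed, limma called Abca1 and not Mmp9. With siCTL replicate 2 left out limma called 2 of 103 higher and 7 lower, beside 2.65% and 2.23% of all genes, and 2 higher and 6 lower with the trend also removed, beside 2.28% and 1.59%. These lists were written with earlier results of these data known.

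Genes of the LDL receptor family and partners of LRP1 held no call by limma with all libraries. Of 17 tested, 14 had a negative log2 change, beside 50.7% of all genes, and the list's median was -0.17, against 0.00 over all genes tested. The count was 12 of 16 without siCTL replicate 2 and 10 of 16 with the trend also removed, beside 48.3% and 49.2% of all genes. Mmp9, a matrix protease that LRP1 clears, had 14513 ± 1037 normalised reads in siCTL and 9008 ± 188 (SD, n = 3) in the libraries labelled siTET3. Its log2 change was -0.69 over the 6 libraries, which did not pass (limma adjusted p = 0.0502), and -0.74 without siCTL replicate 2 (limma adjusted p = 0.000182). Plaur, the urokinase receptor, had a log2 change of -0.47 with all libraries (limma adjusted p = 0.172). It passed without siCTL replicate 2 (limma adjusted p = 0.0109), and also with the trend removed (limma adjusted p = 0.00916). Lrp12 had a log2 change of -0.31 and passed only in the latter fit of limma (adjusted p = 0.0461). The list's median was -0.12 without siCTL replicate 2 and -0.08 with the trend also removed.

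Of 14 tested genes for the uptake of apoptotic cells, limma called none with all libraries, beside 0.354% of all genes, and 4 without siCTL replicate 2, beside 4.88%. DESeq2 with all libraries called 6 of them, beside 3.84% of all genes, with Havcr2, Cd300lf, Itgb3, Gas6 and Mfge8 lower and Adam17 higher. Itgb3, an integrin chain, lies outside the rule for named genes and was named after its values were seen. Gas6, the bridging ligand of AXL and MERTK, had 784 ± 80.4 normalised reads in siCTL and 569 ± 24.6 (SD, n = 3) in the libraries labelled siTET3. Mfge8, which bridges phosphatidylserine to integrins, had 5210 ± 468 and 3849 ± 169 (SD, n = 3), and Havcr2, the phosphatidylserine receptor TIM-3, had 576 ± 9.36 and 402 ± 61.9 (SD, n = 3). None passed limma with all libraries (adjusted p = 0.230, 0.224 and 0.263). All passed without siCTL replicate 2, at log2 changes of -0.38, -0.37 and -0.54 (limma adjusted p = 0.0411, 0.0222 and 0.0432), and with the trend also removed only Havcr2 did (limma adjusted p = 0.103, 0.0621 and 0.0357). Cd300lf, a further phosphatidylserine receptor, had a log2 change of -0.53 (limma adjusted p = 0.248). Adam17, the protease that sheds the MERTK ectodomain and named after its values were seen, was higher without siCTL replicate 2, at 0.27 (limma adjusted p = 0.0346), and did not pass with the trend also removed (limma adjusted p = 0.0911). Of the members tested, 5 had a positive log2 change. C1qa, C1qb, C1qc, Timd4, Havcr1 and Megf10 were at 0 in every library.

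Of 9 tested genes among other scavenger receptors, only Stab1, the scavenger receptor stabilin-1, passed in any of these fits. It had 1592 ± 207 normalised reads in siCTL and 1261 ± 9.99 (SD, n = 3) in the libraries labelled siTET3, with a limma adjusted p of 0.339 with all libraries, 0.0253 without siCTL replicate 2 and 0.0485 with the trend also removed. Colec12, Scarf1 and Olr1 had log2 changes of 0.25, -0.25 and -0.36 and did not pass. These were 0.13, -0.21 and -0.49 without siCTL replicate 2, and 0.02, -0.07 and -0.63 with the trend also removed. Scara5, Stab2, Cd163 and Cd163l1 were, like Marco, at 0 in every library. Among 20 lipid handling genes, 11 had a positive and 9 a negative log2 change. Abca1, the cholesterol exporter, had 861 ± 89.4 normalised reads in siCTL and 1484 ± 61.6 (SD, n = 3) in the libraries labelled siTET3. Its log2 change of 0.79 missed the threshold with all libraries by limma (limma adjusted p = 0.0502), while DESeq2 called it (DESeq2 adjusted p = 1.4e-08). With the base-content trend removed and all libraries kept it was 0.72 (limma adjusted p = 0.0344). It was 0.72 without siCTL replicate 2 (limma adjusted p = 0.00120), and 0.68 with the trend also removed (limma adjusted p = 0.00159). Abcg1, a second exporter, had a log2 change of 0.44 and passed only without that library and with the trend removed (limma adjusted p = 0.0482). Nr1h2, the oxysterol receptor LXR-beta, and Acsl1, a fatty acid activating enzyme, had log2 changes of -0.26 and -0.27 and did not pass (limma adjusted p = 0.337 and 0.362).

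Lists around CD14, engulfment and the lysosome held no call by limma in these 3 fits. Among 11 tested genes of the lipopolysaccharide receptor complex, 7 had a positive log2 change. Cd180, a TLR4-like receptor, had the smallest p, with a log2 change of 0.55 (limma adjusted p = 0.378) that was 0.26 without siCTL replicate 2. Among 21 genes of engulfment, Crk, an adaptor upstream of Rac, had a log2 change of 0.49 (limma adjusted p = 0.330) and 0.35 without siCTL replicate 2. Abca7, a lipid transporter, and the actin-associated Coro1a and Myo1g had log2 changes of -0.28, -0.20 and -0.23 (limma adjusted p = 0.337, 0.377 and 0.378). Among 12 lysosomal genes, Ctsd, the protease cathepsin D, had a log2 change of -0.23 (limma adjusted p = 0.377), and Lamp2, a lysosomal membrane protein, one of 0.20 (limma adjusted p = 0.382). The medians of these lists were 0.08, 0.01 and -0.01, against 0.00 over all genes tested.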

How the data were processed

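Titles grouped 6 RNA sequencing libraries into siCTL (n = 3) and siTET3 (n = 3). They came from a stranded mRNA kit, per the labels' protocols, and the submitters' processing notes name the genome builds GRCm38 and mm10. For the aligner and counter, names were not given in the labels. Whether counting used strand is unknown, but no other annotated exon overlaps the exons of the 10 genes.

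The deposited table gives a signal per gene and library, which the values themselves show to be a read count scaled by 1 factor per library, since 100% were whole multiples of 1 read within 0.001 reads. A read was worth 0.634 to 1.27 units. It also holds the authors' log2 fold changes with a score (their SE and test statistic) and deposited p-values, which the file's name credits to DESeq2. Their sign, siCTL over siTET3, was turned here.

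The main test was limma 3.58.1 (R 4.3.3) on log2(value + 1) with a variance trend and no term but group. It took the 11591 genes with a mean of at least 10, with Benjamini-Hochberg adjustment and a threshold of 0.05. The planned edgeR test for raw counts became an alternative, because the values were already scaled. Fold changes of low genes on this scale depend on the pseudocount. Alternatives were edgeR 4.0.16 and DESeq2 1.42.0 on recovered reads, other pseudocounts, filters and scalings, a replicate block, removal of each library's base-content trend by lowess on the G+C of the longest coding transcript, and each library left out. The limma fit was tested on simulated data. Exact two-sided permutation tests used the 20 assignments of libraries. Positions are from GENCODE M21 (GRCm38), which held 21886 of the 22027 gene IDs.

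All 10 receptors are named, with Tet3, up to 4 members of each list in order of limma p, and the 5 genes with a mean of at least 100 nearest in profile to the member of smallest p. Some genes that this rule takes are not reported here. The members and lists were chosen with earlier results of these data known.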

Additional observations from a re-analysis of the deposited data

How the results depend on the processing

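No receptor gene was called under any of 19 alternatives to the main test, which called 0.00863% to 4.88% of all genes, and Msr1, Scarb2 and Lrp1 kept their sign in all 19. Mertk could not be tested without siCTL replicate 2, with or without the trend, or among genes with a mean of at least 50. The lowest adjusted p was 0.0615, for Lrp1 by limma without siCTL replicate 2. Among the genes whose changes are described here, signs turned as follows, none of them for a called gene. With the base-content trend removed, with or without the replicate block, the log2 change was -0.0636 for Cd36, 0.147 for Scarb1, 0.0338 for Tet3, 0.00886 for Coro1a, 0.0222 for Nr1h2 and -0.271 for Lamp2. With siCTL replicate 2 left out and the trend removed it was -0.0361 for Cd36, 0.00432 for Scarb1, 0.0408 for Cd68, 0.494 for Axl and -0.00184 for Lamp2. With scaling to library size alone it was 0.0739 for Scarb1, 0.0156 for Cd14 and 0.0286 for Tet3. Leaving out 1 library gave -0.0840 to 0.0504 for Scarb1, -0.238 to 0.00421 for Cd68 and -1.60 to 0.437 for Axl. The cause was not tested.

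Over all genes, 34 were higher and 7 lower. Leaving out 1 library gave 2 to 305 higher and 0 to 257 lower, the highest without siCTL replicate 2. Leaving that library out and removing the trend gave 263 and 183, and DESeq2 gave 216 and 219. Without a filter 4 were lower, with scaling to library size alone 2, and without a variance trend 11. A pairing by replicate number was not seen in the values. Same-numbered libraries correlated at 0.03, -0.06 and -0.10 in their deviations, and no library correlated best with its own number. Deviations from means of 3 libraries, with siCTL replicate 2 among them, cannot show whether same-numbered libraries shared a culture. With the replicate block 1 gene was higher and 0 lower, and 4 and 0 with the block and the trend removed. Depth limits Axl, Mertk and Marco, whose reads per library were at most 26 outside siCTL replicate 2.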
